A study of Mus musculus with 6 samples.

Results

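Glycolysis was followed through 10 genes: the glucose transporter gene Slc2a1 and the enzyme genes Gpi1, Aldoa, Tpi1, Gapdh, Pgk1, Pgam1, Eno1, Pkm2 (the file's symbol for Pkm) and Ldha. They were chosen by name as 10 of the 12331 gene rows of the table, and all 10 were present and passed the filter on low values. The table held 6 RNA-seq libraries made from E14tg2a, a line of mouse embryonic stem cells, grown in serum medium with LIF, the cytokine that keeps these cells undifferentiated. The input was a dilution to the RNA of roughly a single cell, 10 pg, which was reverse transcribed from its poly(A) tails and amplified by 20 cycles of PCR. The labels also call the samples single cell lysates, while the protocol describes a dilution of RNA prepared from cells in bulk. The cDNA of 3 libraries was broken by sonication and ligated to adaptors. That of the other 3 was cut and tagged by hyperactive Tn5 transposase (tagmentation) and amplified by 13 further cycles. Each method had technical replicates numbered 1 to 3, so p-values cover only the spread among these 6 libraries, which may be technical.

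Glycolysis converts glucose to pyruvate in the cytosol and yields ATP without oxygen. Lactate dehydrogenase then reduces pyruvate to lactate, which restores the NAD+ that the pathway consumes. Mouse embryonic stem cells use both glycolysis and mitochondrial respiration, and rapidly dividing pluripotent cells are known for a high glycolytic rate.

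The libraries had 18852822 to 34681566 alignments. Of the 10 stem cell markers checked, 8 reached 1 RPKM in all 6 libraries (RPKM, reads scaled by gene length and by the alignments of the library). The exceptions were Nanog and Klf4. Nanog had 7.16, 3.85 and 0 RPKM in sonication libraries 1, 2 and 3 and 8.39, 4.48 and 0 RPKM after tagmentation. Klf4 had 0.336, 14.3 and 31.6 RPKM and 0.141, 12.3 and 40.4 RPKM. The summed level of the 10 markers was 1419 to 2859 RPKM after sonication and 1773 to 2531 RPKM after tagmentation. Dppa5a, the marker with the highest mean, ranged from 455 to 1739 RPKM, so the sum says little about the other markers. Of 7 fibroblast markers, 4 had rows. Col1a1, Col1a2 and Col3a1 were under 1 RPKM in every library, and the list summed to 0.402 to 12.1 RPKM after sonication and 0.126 to 9.55 RPKM after tagmentation. Thy1 made up all of that sum in number 1, where it had 12.1 and 9.55 RPKM. The blood markers Hba-a1 and Hbb-b1 stayed at or under 0.111 RPKM, and the muscle gene Acta1 ranged from 1.19 to 84.1 RPKM. The 6 extraembryonic endoderm markers were not analysed here. The RNA was prepared from many cells, so fewer cells of a type and less RNA per cell cannot be told apart.

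Gapdh and Eno1 have copies elsewhere in the mouse genome, and the sequence of the best-matched Gapdh copy with a row in the table shows how little separates the rows. The coding sequence of Gapdh (1002 bases, GENCODE M21) aligned over its whole length to Gm12070, a processed pseudogene, with 1001 identical bases. A single base differed, G361A, counted from the A of the start codon with the Gapdh base first. The stretch from coding position 331 to 390 is printed below, with the differing base in capitals.
Gapdh: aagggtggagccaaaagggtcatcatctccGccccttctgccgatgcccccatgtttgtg
Gm12070: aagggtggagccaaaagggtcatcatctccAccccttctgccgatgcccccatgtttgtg
A read that does not cover this base is the same for both rows over the coding sequence.

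Values are given in the order of replicate numbers 1, 2 and 3. Row Gm12070 had 171, 235 and 171 RPKM with sonication and 86.4, 183 and 152 RPKM with tagmentation. It thus stood at 0.711 to 0.815 times the Gapdh row in every library. How the authors placed reads with several matches is not given in the sources used here, so the Gapdh values are uncertain in level.

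Eno1, which encodes the enolase of most cell types, was the clearest case. Its coding sequence of 1305 bases differed at 8 bases from that of Eno1b, an intronless copy whose row carries the older symbol Gm5506 (99.4% identity). The Eno1 row had only 21.9, 37.7 and 21.7 RPKM after sonication and 15.1, 38.2 and 24.6 RPKM after tagmentation. Row Gm5506 had 1048, 1324 and 1379 RPKM and 603, 1173 and 1320.1 RPKM, or 30.8 to 63.5 times as much. The Eno1 row held 1.55 to 3.15% of the sum of the 2 rows. Read alone it would place enolase last of the 10 genes, while the sum of 618 to 1401 RPKM would place it among the highest.

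**Figure D1:**
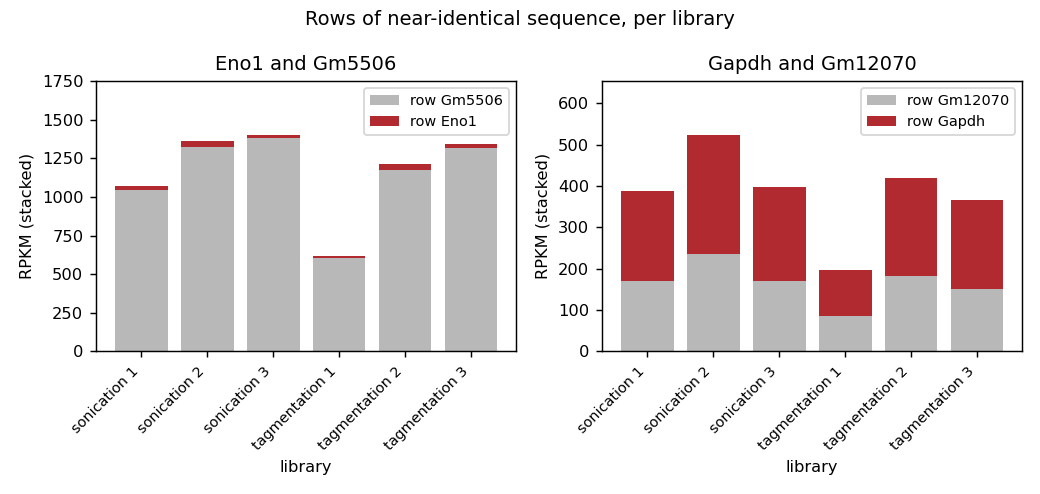
Stacked RPKM of Eno1 with Gm5506 (Eno1b) and of Gapdh with Gm12070 in each of the 6 libraries; the red part is the row of the named gene. Red is a thin band of 1.55 to 3.15% in the Eno1 bars, while Gm12070 stands at 0.711 to 0.815 times Gapdh.

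Windows of 36 bases were used to see how far the other genes share this limit. For Slc2a1, 0 of 3225 windows of its transcript occurred in a transcript of any other gene. The share was 14.2% for Tpi1, 27.5% for Aldoa, 28.3% for Gpi1, 29.4% for Ldha, 42.0% for Pgam1 and 42.7% for Pkm2. It was 68.2% for Pgk1, 75.9% for Eno1 and 91.7% for Gapdh, whose windows were spread over 297 other genes. The transporter is thus the member whose row is least open to reads of other genes, and Gapdh, often taken as a reference gene, the most.

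Transport comes first. Slc2a1 (GLUT1) carries glucose across the plasma membrane. It had 190.3, 222 and 221 RPKM with sonication and 153, 275 and 348 RPKM with tagmentation. The tagmentation libraries held both the lowest and the highest value, so the groups overlapped. Slc2a3 (GLUT3), a transporter of higher glucose affinity, stood at a like level, with 276, 136 and 153 RPKM against 254, 153 and 237 RPKM. Slc2a1 supplied 37.6 to 64.2% of the sum of the pair, and which one was higher depended on the library.

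Among the enzymes that act before glyceraldehyde 3-phosphate, Gpi1, which turns glucose 6-phosphate into fructose 6-phosphate, had 47.3, 117 and 41.2 RPKM after sonication and 27.0, 110.1 and 41.2 RPKM after tagmentation. Number 2 was the highest in both methods. Aldoa, the aldolase that splits fructose 1,6-bisphosphate, had 822, 1035 and 584 RPKM and 469.6, 995 and 629 RPKM. Number 2 was again highest, and tagmentation library 1 was the lowest of the 6. Tpi1, which interconverts the triose phosphates, had 278, 180.3 and 165 RPKM and 180.5, 171 and 185 RPKM. Its sonication library 1 stood above the other 5, which lay close together.

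Next come the enzymes that act from glyceraldehyde 3-phosphate onward. Gapdh, which makes 1,3-bisphosphoglycerate and NADH, had 218, 288 and 227 RPKM after sonication and 112, 237 and 213 RPKM after tagmentation. Tagmentation library 1 stood far below the other 5. Pgk1, the first enzyme of the pathway to make ATP, had 776, 381 and 199 RPKM and 683, 426 and 291 RPKM. Its levels were ordered number 1, 2, 3 from high to low in both methods. No other member had that order in both methods, though Tpi1 and Ldha had it after sonication. Pgam1, which moves the phosphate of 3-phosphoglycerate, had 259, 231 and 282 RPKM and 249, 291 and 467 RPKM. Here tagmentation library 3 stood above the rest.

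At the end of the pathway, Pkm2, pyruvate kinase, had 883, 1200.0 and 749 RPKM after sonication and 487, 1014 and 733 RPKM after tagmentation, with number 2 highest in both methods. The row covers the gene and does not separate its M1 and M2 splice forms. Ldha, the lactate dehydrogenase subunit that favours lactate, had 820.3, 676 and 543 RPKM and 544, 701 and 672 RPKM. It spread least of the 10, with 1.51 times between its lowest and highest library.

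**Figure D2:**
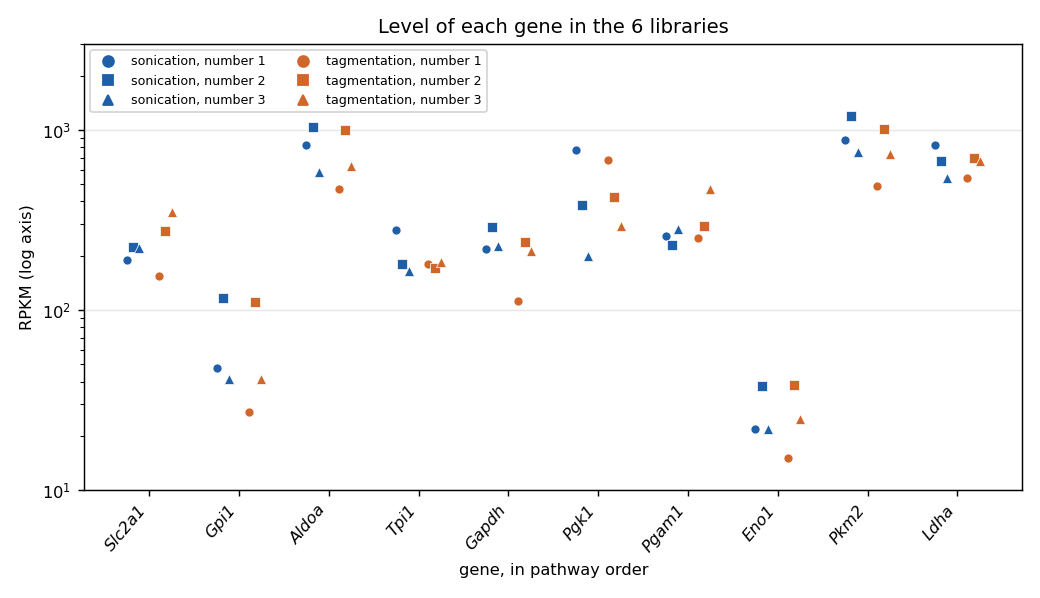
RPKM of the 10 genes in pathway order on a log axis; colour is the method, symbol the replicate number, and each point 1 library. Pkm2, Aldoa and Ldha lie highest, Eno1 lowest, and the points of the methods overlap for all 10 genes.

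By mean RPKM over the 6 libraries the order was Pkm2 (845), Aldoa (756), Ldha (659), Pgk1 (459), Pgam1 (297), Slc2a1 (235), Gapdh (216), Tpi1 (193), Gpi1 (64.0) and Eno1 (26.5). Pkm2 exceeded Aldoa in 6 of 6 libraries, as did Pgam1 over Slc2a1, Tpi1 over Gpi1 and Gpi1 over Eno1. Other neighbours changed places: Slc2a1 exceeded Gapdh in 3 of 6 libraries, Gapdh exceeded Tpi1 in 4, Aldoa exceeded Ldha in 4, Pgk1 exceeded Pgam1 in 4 and Ldha exceeded Pgk1 in 5. Among all 12331 rows the means ranked from 52 for Pkm2 to 957 for Gpi1 and 2097 for Eno1. The 10 genes together held 1.05 to 1.22% of all RPKM after sonication and 0.960 to 1.11% after tagmentation. All 10 stood at 10 RPKM or more in each library, as did 1706 rows (13.8%) of the table.

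The counts behind these values were large. For 6 members whole reads could be recovered in all libraries: 1619 to 10885 for Gpi1, 2893 to 10103 for Gapdh, 4987 to 13465 for Tpi1, 6752 to 42362 for Pgk1, 8292 to 31024 for Slc2a1 and 9299 to 29701 for Pgam1. The counting error (1 SE, from the square root of the reads) was at most 2.49%, in tagmentation library 1 for Gpi1. For Aldoa, Eno1, Pkm2 and Ldha no gene length gave whole reads within the tolerance of the search. For Aldoa and Pkm2 the search could not succeed at their transcript lengths of 1549 and 2432 bases. There the rounding of their highest values alone exceeded the tolerance of 0.1 reads. Eno1 had at least 317 reads per kilobase, and Aldoa, Pkm2 and Ldha at least 9865. Counting error is thus far smaller than the spread between libraries, but reads amplified by PCR are not independent molecules when no molecular identifiers were used, so it covers counting only.

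One isoenzyme carried most of the signal at most steps. Aldoa held 99.87 to 100% of the sum of Aldoa and Aldoc, the brain aldolase, with Aldoc at or under 1.05 RPKM. The testis forms Gapdhs and Pgk2 and the liver and red cell pyruvate kinase Pklr did not exceed 0.0324 RPKM in any library. Pgam2, the muscle form of phosphoglycerate mutase, had 32.9 RPKM in sonication library 1 and 18.1 RPKM in tagmentation library 1, and was listed at 0 in the other 4. Eno3, the muscle enolase, had 22.6, 30.5 and 53.4 RPKM after sonication and 13.4, 28.2 and 58.8 RPKM after tagmentation. Eno2, the neuronal form, stayed at or under 0.113 RPKM. Lactate dehydrogenase was more evenly shared. Ldhb, the subunit that favours pyruvate, had 199.8, 419 and 186 RPKM and 118, 392 and 205 RPKM, which left Ldha 61.7 to 82.1% of the pair.

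The hexokinase and phosphofructokinase steps have no gene among the 10. Hk2, the hexokinase of growing cells, had 6.12, 2.24 and 11.9 RPKM after sonication and 5.31, 1.57 and 20.9 RPKM after tagmentation. Hk1 had 1.05 and 0.705 RPKM in number 1 and was listed at 0 in numbers 2 and 3. Pfkl, the liver-type phosphofructokinase subunit, ranged from 11.3 to 144 RPKM, Pfkp from 8.34 to 38.0 RPKM and Pfkm from 0.122 to 26.6 RPKM. Pfkl held 74.3 to 86.0% of their sum in numbers 2 and 3 but 33.8 and 23.8% in number 1, where Pfkm held the most (37.3 and 38.9%). Hk2 and these 3 genes thus spread by 4.56 to 217 times between libraries, more than any of the 10, which spread by at most 4.34 times. Hk2, Pfkm and Pfkp had low means, of 7.99, 10.2 and 21.1 RPKM, and abundant genes spread less between numbers, as given below. The mean of Pfkl, 76.4 RPKM, lay above those of Gpi1 and Eno1.

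**Figure D3:**
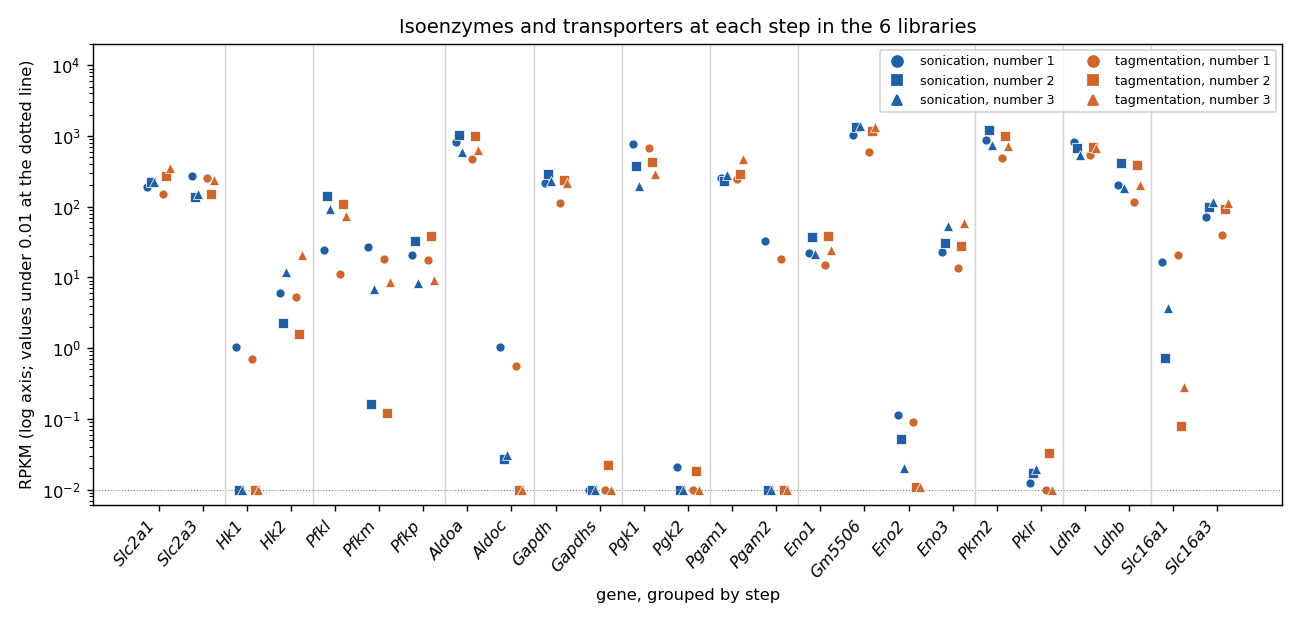
RPKM on a log axis of the genes that can serve each step, grouped between the grey lines; points under 0.01 RPKM, zeros included, are drawn on the dotted line. Aldoa, Gapdh, Pgk1, Pgam1 and Pkm2 stand above their isoenzymes in every library, while Ldha and Ldhb, and Slc2a1 and Slc2a3, lie within 1 order of magnitude.

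Sonication was then compared with tagmentation, the question of the series. Of the 10 genes, 7 had a log2 fold change (tagmentation minus sonication in log2(RPKM + 1), a scale that understates changes of low genes) below 0, as did 47.3% of tested genes. None passed limma's test (Benjamini-Hochberg adjusted over 6327 tested genes). This fit leaves out the replicate number, so the spread between numbers enters its SEs. The percentage of all tested genes called was 0%, and the share at an unadjusted p under 0.05 was 0.284%, or 18 genes, none of them among the 10. Gapdh had the lowest value, -0.44 (SE 0.42), with means of 244 ± 38.2 and 187 ± 66.5 RPKM for sonication and tagmentation (SD, n = 3). Pkm2 followed with -0.38 (SE 0.36), from 944 ± 231 to 745 ± 264 RPKM. Pgam1 had the highest value, 0.34 (SE 0.38), with 257 ± 25.9 and 336 ± 116 RPKM, and Slc2a1 had 0.22 (SE 0.41), with 211 ± 18.0 and 259 ± 98.1 RPKM. The libraries of the methods overlapped for all 10 genes, while they did not overlap for 2.40% of tested genes (0.522% lower and 1.88% higher after tagmentation). The median log2 fold change was -0.14 for the 10 genes and 0.028 for all tested genes.

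With the replicate number as a block, limma called 208 of the 6327 genes (3.29%) and 0 of the 10, 0 also at an unadjusted p under 0.05, where 16.8% of all tested genes stood. Their adjusted p ran from 0.492 for Gapdh to 0.938 for Ldha. Under quantile normalization with the block, Gapdh (-0.57, adjusted p 0.0397) and Pkm2 (-0.41, adjusted p 0.0445) were called lower in limma, where 7.52% of tested genes were called and 3.73% called lower. These were the only calls on a member among the alternatives tried.

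Within the pairs, number 1 stood apart. All 10 genes were lower in tagmentation library 1 than in sonication library 1, with log2 differences from -0.96 for Gapdh to -0.053 for Pgam1 and a median of -0.61. In number 2, 5 of 10 were lower (median -0.021), and in number 3, 3 of 10 (median 0.17). Gapdh illustrates this, with ratios of tagmentation to sonication of 0.514, 0.822 and 0.938 in numbers 1 to 3, and Pgk1 with 0.879, 1.12 and 1.46. From sonication to tagmentation the sum of all RPKM went from 355144 to 304028 in number 1 and from 361015 to 383453 in number 2. In number 3 it rose from 288696 to 359221. As a share of that sum the 10 genes fell in each pair: 1.22 to 0.960%, 1.21 to 1.11% and 1.05 to 1.00%. Without Pkm2, the most abundant, the share fell in number 1 (0.966 to 0.800%) and number 2 (0.878 to 0.846%). In number 3 it then rose slightly, from 0.791 to 0.799%. For each of the 10 genes the log2 difference was lowest in number 1 and highest in number 3. The medians of all tested genes and of abundant genes, given next, ran the same way. The share of tested genes with this order was not computed. Among all tested genes, 56.0%, 40.8% and 34.2% were lower after tagmentation in numbers 1 to 3, with median differences of -0.072, 0.079 and 0.20. In number 1 abundant genes, the 610 tested genes with a mean of at least 100 RPKM, lay nearer to the 10 than all tested genes did. In numbers 2 and 3 all tested genes lay nearer. Of the 610 genes, 76.7% were lower after tagmentation in number 1, 37.7% in number 2 and 21.8% in number 3. Their medians were -0.40, 0.11 and 0.37. Gapdh, Pkm2 and Gpi1 were lower after tagmentation in 3 of 3 pairs, as were 14.2% of tested genes, and 0 of the 10 were higher in all 3 pairs, against 19.6%. For Gpi1 the pair of number 3 was nearly equal, at a ratio of 0.999.

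**Figure D4:**
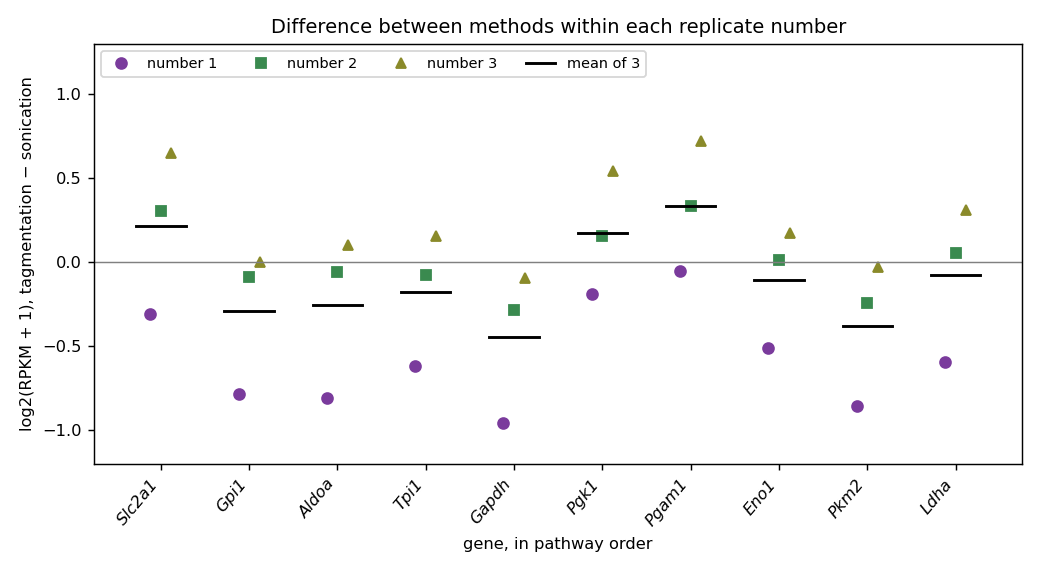
Difference of log2(RPKM + 1), tagmentation minus sonication, for the 3 replicate numbers of each gene, with the mean of the 3 as a black line. All 10 circles of number 1 lie below 0, and the number 3 triangle is the highest of each gene.

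The replicate number was the larger source of spread in the series. On the deposited scale fewer of the 10 genes were called between numbers than of all tested genes, while under both other scalings tried most of the 10 were called. Limma's F test with method as a term called 88.1% of the tested genes between numbers and 3 of the 10: Gpi1 (range of the number means 1.64 on the log2 scale, adjusted p 1.62e-05), Pgk1 (1.59, adjusted p 1.70e-04) and Eno1 (1.02, adjusted p 0.0194). The same 3 differed by 2-fold or more, as did 84.5% of tested genes. The median range was 0.74 for the 10 genes, 2.38 for all tested genes and 1.00 for the 610 genes with a mean of at least 100 RPKM, of which 57.7% were called. Gpi1 was high in number 2 and Pgk1 in number 1. The same number was highest in both methods for 7 of the 10 (84.6% of tested genes), and the full order of the 3 numbers was the same for Gapdh and Pgk1 only (72.6% of tested genes). The other 7 had ranges from 0.19 (Ldha) to 0.75 (Pkm2) and adjusted p from 0.0867 (Aldoa) to 0.873 (Ldha). With only a pair of libraries behind each number, the error in this F test comes from how the pairs differ in their method difference, moderated over genes.

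The calls between numbers changed with the numbers kept and with the scaling. Without number 2, Gpi1 (range 0.20, adjusted p 0.812) and Eno1 (0.33, adjusted p 0.669) were not called in limma, and without number 3, Pgk1 was not (0.85, adjusted p 0.0714). In both methods number 2 was the highest for Gpi1 and Eno1 and number 3 the lowest for Pgk1. Leaving that number out must therefore narrow the range, so the lost calls are no independent check. Eno1 was also not called when summed with Gm5506 (0.76, adjusted p 0.0934). Without the filter Eno1 missed the threshold too (adjusted p 0.052). With median-ratio scaling 8 of the 10 were called, against 90.9% of tested genes, and with quantile normalization 9, against 91.7%.

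**Figure D5:**
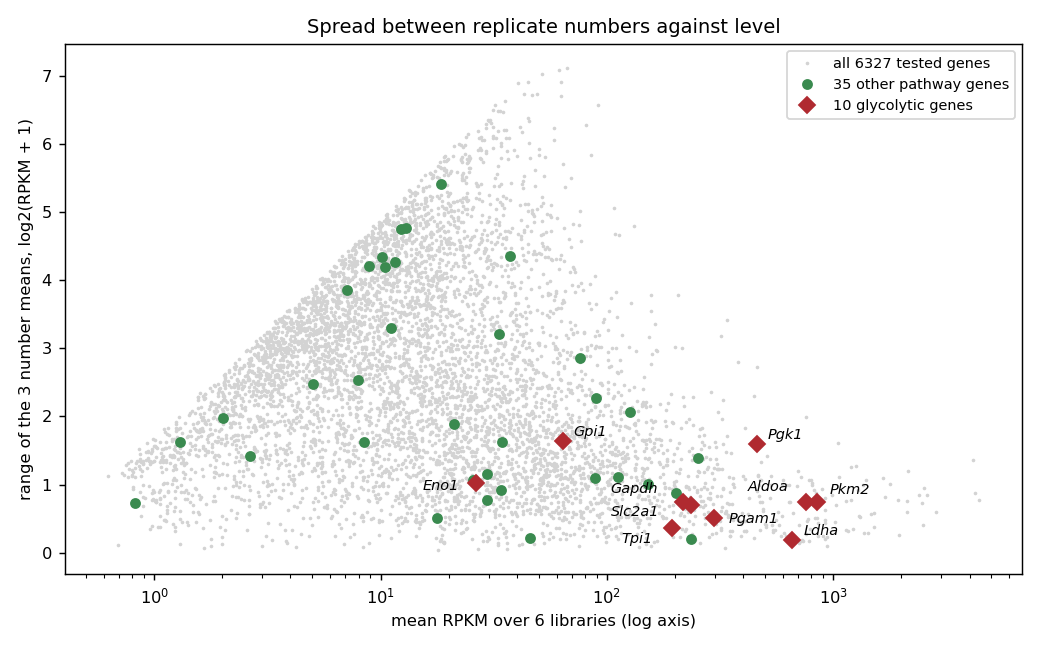
Range of the means of the 3 replicate numbers, in log2(RPKM + 1), against mean RPKM (log axis) for the 6327 tested genes, the 35 other pathway genes and the 10 glycolytic genes. The 10 lie toward the lower right, at 0.19 to 1.64, while other pathway genes reach 5.41.

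Members differed among themselves in this pattern. On log2(RPKM + 1) values centred on each gene, Pkm2 and Aldoa differed least, by a root mean square of 0.11 over the 6 libraries, and Pgk1 and Gpi1 most, by 1.08. Slc2a1 and Pgam1, both highest in tagmentation library 3, differed by 0.22. Outside the pathway, the 3 genes most like Slc2a1 were Capzb (an actin capping protein), Eif3l and Eif4a3, at 0.089 to 0.093. The 3 most like Gapdh were the ribosomal protein genes Rpsa, Rps12 and Rpl8, at 0.052 to 0.063. Those most like Ldha were Eif3f, Rpl35 and Pdlim1, at 0.062 to 0.069. Of 3752 candidates with a mean of at least 10 RPKM, 51, 77 and 78 lay within 0.2 of Slc2a1, Gapdh and Ldha. With 6 libraries that form 3 pairs, such likeness describes these libraries only.

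Promoters of Slc2a1, Gpi1, Pgk1 and Ldha are given for reference, and no link between promoters and differences among the libraries was tested. HIF-1, the oxygen-regulated transcription factor known to act on glycolytic genes, binds the core ACGTG or GCGTG. RefSeq starts matched all 10 genes with 16 promoters (GRCm38.p6), of which the 250 bases before each start were searched on both strands. Either core was present in 12 of 16 windows (75.0%), against 59.3% of 6370 promoters of tested genes and 38.6% of 32851 promoters in the table. The median GC content of these sets was 63.4%, 60.4% and 52.4%, and its part in the shares was not tested. ACGTG alone was present in 7 of 16, against 23.4% of promoters of tested genes. Of the 3 windows of Aldoa 2 overlap each other, and so do 2 of the 3 of Eno1. Capitals mark either core on either strand. Ldha (chr7:46845554-46845803, + strand, the first of 2 starts) had 5 overlapping matches to ACGTG, 4 of them within 2 copies of CACGTG, the E-box that MYC proteins bind. That E-box was present in 1 of the 16 windows (6.25%), against 9.09% of promoters of tested genes. Pgk1 (chrX:106186850-106187099, + strand) had 2 matches to ACGTG, Slc2a1 (chr4:119108495-119108744, + strand) had 1 to ACGTG and 1 to GCGTG, and Gpi1 (chr7:34230337-34230586, - strand) had none.
Slc2a1: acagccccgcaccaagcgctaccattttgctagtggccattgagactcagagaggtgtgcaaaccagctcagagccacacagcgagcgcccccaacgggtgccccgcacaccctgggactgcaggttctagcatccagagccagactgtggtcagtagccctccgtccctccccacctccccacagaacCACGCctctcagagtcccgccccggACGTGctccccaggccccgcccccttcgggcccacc
Gpi1: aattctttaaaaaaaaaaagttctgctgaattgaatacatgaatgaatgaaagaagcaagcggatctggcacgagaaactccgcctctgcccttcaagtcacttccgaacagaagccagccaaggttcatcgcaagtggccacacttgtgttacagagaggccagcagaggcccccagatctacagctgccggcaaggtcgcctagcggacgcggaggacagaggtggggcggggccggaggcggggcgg
Pgk1: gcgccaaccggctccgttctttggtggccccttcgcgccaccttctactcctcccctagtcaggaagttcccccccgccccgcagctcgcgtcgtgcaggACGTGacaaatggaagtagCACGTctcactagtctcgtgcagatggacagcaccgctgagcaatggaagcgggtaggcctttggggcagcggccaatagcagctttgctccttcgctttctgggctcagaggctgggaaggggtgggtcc
Ldha: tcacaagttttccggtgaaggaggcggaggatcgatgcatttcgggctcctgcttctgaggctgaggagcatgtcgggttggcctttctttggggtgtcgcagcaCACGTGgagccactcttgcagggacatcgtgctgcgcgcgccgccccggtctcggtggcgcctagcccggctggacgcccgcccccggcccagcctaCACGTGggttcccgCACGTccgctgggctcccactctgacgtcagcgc
A match is a string of letters and not a measured binding site, and no match says only that these letters are not in this window.

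The rest of the pathway was taken from 5 lists with 60 genes, of which 53 had rows and 35 passed the filter on low values. Limma called 0 of the 35 between methods without the block and 2 with it, both of the pentose phosphate pathway, which draws on glucose 6-phosphate to make NADPH and ribose. Pgls, its lactonase, had 66.2, 58.2 and 57.3 RPKM after sonication and 23.4, 36.6 and 32.9 RPKM after tagmentation, lower in 3 of 3 pairs (log2 fold change -0.97, SE 0.30, adjusted p 0.0441). Rpe, its epimerase, had 23.1, 15.1 and 21.8 RPKM and 44.4, 28.3 and 72.5 RPKM, higher in 3 of 3 pairs (1.15, SE 0.30, adjusted p 0.0120). For both, the libraries of the methods did not overlap. With the block both calls also passed at a pseudocount of 5, among genes averaging 10 RPKM or more, and with quantile normalization (adjusted p 0.0066 to 0.0382 in limma). Both passed too with the block and without number 1 (adjusted p 0.0290 for Pgls and 0.0102 for Rpe in limma). In that fit 16.6% of tested genes were called. Neither call held with the block at a pseudocount of 0.1 (adjusted p 0.282 and 0.251 in limma), without the filter (0.698 for both), with median-ratio scaling (0.119 for both), with the GC correction (0.229 and 0.208), or without number 2 or number 3 (0.588 to 0.999). With the block 1.58% of tested genes were called higher and 1.71% lower. Pgd, the most abundant gene of the list, ranged from 100.7 to 221 RPKM.

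Between numbers, limma called 29 of these 35 genes, near the 88.1% of all tested genes, with a median range of 1.88. All 7 tested isoenzymes and kinases were called, and so were all 7 tested genes of mitochondrial pyruvate entry. Among the latter, Pdhb, a subunit of pyruvate dehydrogenase, had 179.9, 34.8 and 31.8 RPKM after sonication and 199.6, 42.6 and 47.5 RPKM after tagmentation. Dld, the dehydrogenase shared by such complexes, had 30.9, 1.72 and 0.331 RPKM and 77.3, 0.361 and 0.0386 RPKM. Number 1 was the highest for both. Of glucose and lactate transport, 2 of 4 were called. Slc16a3, a lactate exporter, had 71.5, 100.1 and 117 RPKM and 39.2, 91.5 and 112 RPKM and was called. Bsg, the chaperone of lactate transporters, ranged from 199.2 to 290.1 RPKM and was not. Of the control genes, 6 of 9 were called. Myc, a transcription factor that drives growth, had 53.7, 46.8 and 1.35 RPKM and 53.7, 66.4 and 2.26 RPKM. Hif1a, the oxygen-regulated subunit of HIF-1, had 2.55, 1.69 and 5.76 RPKM and 4.84, 0.0789 and 1.02 RPKM.

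Detection followed the same line. Of the 53 rows of the 5 lists, 21 (39.6%) reached 1 RPKM in all 6 libraries, against 29.6% of all rows and 10 of the 10 glycolytic genes. Both libraries of number 1, and no library of numbers 2 and 3, reached 1 RPKM for 6 of the 53 (11.3%): Pgam2, Slc2a8, Pfkfb2, Pfkfb3, Vhl and Gpd1. Such rows made up 10.1% of the whole table, and those found only in number 2 or only in number 3 made up 4.16% and 2.64%.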

How the data were processed

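Gene expression was measured in 6 libraries, 3 per method, grouped and numbered by their labels. The authors deposited RPKM values, with each library's alignment total, per the file headers; each library has its own column. The submitters' processing notes name mm9, CASAVA 1.7.0 and Partek without a role; no source used here gives the aligner, the annotation or the treatment of multiply matching reads. Amplification from 10 pg can lose transcripts present in few copies.

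Genes at 1 RPKM or more in at least 3 libraries (6327) were tested as log2(RPKM + 1) with limma 3.58.1 in R 4.3.3 (lmFit, eBayes with a trend), two-sided, Benjamini-Hochberg adjusted over all tested genes, threshold 0.05, on simulated data first. The main model had the method only. No label ties same-numbered libraries to 1 cDNA, but deviations from the method means correlated by 0.952, 0.969 and 0.934 between them, so the numbers pair the libraries, and values with the block appear where a call or a count changes. With the block, limma's prior had 210 degrees of freedom, so each gene's own spread had little weight. Libraries of 1 method correlated by 0.453 to 0.723, so none repeated another.

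The members, lists and tests were chosen with earlier results of these data known. Named genes were the 10 members, isoenzymes, listed genes called or highest in their list, and the 3 genes with the closest pattern to Slc2a1, Gapdh and Ldha (mean of at least 10 RPKM, no predicted-gene symbol). A few further listed genes were named after their values were seen, namely Dld, Hif1a, Slc16a3, Slc2a8, Pfkfb2, Pfkfb3, Vhl, Gpd1 and, among marker genes, Nanog, Klf4, Thy1 and Acta1. Transcript windows and alignments used GENCODE M21 (GRCm38), and promoters RefSeq (GRCm38.p6); no coordinate was converted from mm9. Whole reads were sought with gene lengths of 200 to 12000 bases, with a tolerance of at most 0.1 reads. Lengths at which rounding of the values alone exceeded this were not used. Gene symbols older than these tables, such as Brp44 for Mpc2, were matched as synonyms. One listed isoenzyme is not reported here.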

Additional observations from a re-analysis of the deposited data

How the results depend on the processing

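No member was called between methods in any alternative other than quantile normalization with the replicate block, where 2 were. The number of genes called, 0 without the block under every scaling, pseudocount and filter tried, was 208 with the replicate block. With the block it was 8 at a pseudocount of 0.1, 168 at a pseudocount of 5, 168 among genes averaging 10 RPKM or more, 476 with quantile normalization and 8 with a correction for transcript GC content, which 99.0% of tested genes allowed, and 0 without a filter or with median-ratio scaling. Leaving out single libraries gave 0, and leaving out a number, with the block, gave 1051 without number 1, 10 without number 2 and 19 without number 3. The members called between numbers, 3 in the main test, were 8 with median-ratio scaling (90.9% of tested genes), 9 with quantile normalization (91.7%), 2 without the filter (67.0%) and 1 to 6 without a number (60.9 to 72.0%). The median log2 fold change of the members was -0.30 to -0.11 over other settings and -0.32 to 0.068 without single libraries or numbers. Of 234 single-member alternatives, 215 kept direction and call, 2 gained a call and 17 turned direction, 1 of them Eno1 at 0.066 with the block and GC correction. The other 16 came from leaving out libraries or numbers, with ranges of -0.54 to 0.024 for Aldoa, -0.42 to 0.22 for Eno1, -0.86 to 0.17 for Gpi1, -0.27 to 0.18 for Ldha, -0.31 to 0.67 for Pgk1, -0.036 to 0.55 for Slc2a1 and -0.35 to 0.049 for Tpi1. Within these, leaving out single libraries reached -0.23 to 0.069 for Ldha, and leaving out a number with the block turned Tpi1 to 0.042, Eno1 to 0.094, Slc2a1 to -0.0021 and Pgk1 to -0.013. Gapdh, Pkm2 and Pgam1 kept their direction throughout. Summing Eno1 with Gm5506, or Gapdh with Gm12070, was chosen after seeing the data. The causes of these shifts were not tested. Counting error of the members was at most 2.49% where reads were recovered; what limited the calls was not tested.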

Other observations

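Other rows also carried sequence of the members. Aldoart1 and Aldoart2, retrogene copies of aldolase A known from testis, ranged from 27.9 to 74.2 RPKM and from 18.2 to 51.2 RPKM, and shared 11.0% and 3.30% of the 36-base windows of Aldoa. Their sum stood at 0.0923 to 0.12 times the Aldoa row in every library. For Gapdh, 6 rows of pseudogenes that each share at least 10% of its windows summed to 154.6 to 422 RPKM, or 1.26 to 1.46 times the Gapdh row itself. Whether these rows hold transcripts of their own was not tested.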
